A study of Bos taurus with 12 samples.

Results

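The genes described here encode 10 enzymes that remove superoxide and peroxides: the superoxide dismutases SOD1, SOD2 and SOD3, catalase (CAT), the glutathione peroxidases GPX1, GPX3 and GPX4, and the peroxiredoxins PRDX1, PRDX3 and PRDX6. They were found by matching these 10 symbols to the gene names in the RNA-seq tables, in which each symbol named exactly 1 of the 27270 gene rows. All 10 were among the 14481 genes tested, a set for which 4 or more of the 12 libraries had to hold 10 or more counts.

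The tissue was the whole bovine corpus luteum, the progesterone-secreting gland that forms from the ovulated follicle, taken from cows of mixed breed. Cycles had been synchronised so that every cow was at mid-luteal phase (day 10). Control cows received an intramuscular injection of saline, and treated cows received a dose of prostaglandin F2 alpha (PGF2α) that brings on regression of the gland, with removal 4 h or 12 h later. There were 4 cows in each of the 3 groups, with 1 library per cow, so the differences below are between cows.

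Superoxide dismutases turn superoxide into hydrogen peroxide, and catalase, glutathione peroxidases and peroxiredoxins then reduce the peroxide. Each enzyme has its own place in the cell: SOD1 and PRDX1 are mainly cytosolic, SOD2 and PRDX3 are mitochondrial, SOD3 and GPX3 are secreted, and catalase is peroxisomal. GPX4 reduces peroxidised lipids within membranes, and PRDX6 uses glutathione in place of the thioredoxin that serves the other peroxiredoxins. In luteal cells, electrons that leak from the mitochondrial P450 side-chain cleavage enzyme are a known source of superoxide, and reactive oxygen species have long been studied in luteal regression.

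Libraries held between 10263310 and 22600213 estimated counts. Markers of steroidogenic luteal cells were abundant in every library, with a summed level of 14867 to 27306 TPM (the share of a library's transcripts, corrected for transcript length) at 12 h, against 31298 to 48543 TPM in control cows. Libraries from 12 h cows carried shorter transcripts, with a mean length weighted by TPM of 1409 to 1573 bases, against 1630 to 1732 bases in control cows. Their share of counts from mitochondrially encoded genes was 7.22 to 14.1%, against 6.77 to 10.0% in control cows. On log2(TPM + 1) values the median gene sat at -0.25 at 12 h over control, whereas it sat at 0.01 after scaling by TMM (edgeR's trimmed mean of M-values). Changes of the 10 enzymes at 12 h are given on both scales for this reason, and list counts are given on both. With a correction for transcript length added to the count fit, PRDX3 was the 1 member called at 12 h. Whole tissue was sequenced, so fewer cells of a type and less RNA per cell cannot be told apart.

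All 10 enzymes were well expressed at every time. In control cows GPX4 (1087 ± 105 TPM, SD, n = 4) and SOD2 (1061 ± 264 TPM) had the highest levels. GPX3 (588 ± 352 TPM), PRDX3 (534 ± 79.4 TPM), SOD1 (430.0 ± 48.5 TPM), GPX1 (357 ± 48.7 TPM) and PRDX6 (329 ± 26.2 TPM) formed a middle group in which the ranges of neighbours overlapped. PRDX1 lay below all of these at 237 ± 10.1 TPM, and CAT (127 ± 14.0 TPM) and SOD3 (108 ± 18.6 TPM) were lowest, with ranges that overlapped each other and lay below that of PRDX1. The order was much the same 12 h post-PGF2α, except that PRDX3 stood in place 7 of 10 at 12 h, against place 4 in control cows. Together the 10 transcripts made up 0.399 ± 0.0656% of TPM at 12 h, against 0.486 ± 0.0581% in control cows (SD, n = 4 each), and the ranges overlapped.

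**Figure D1:**
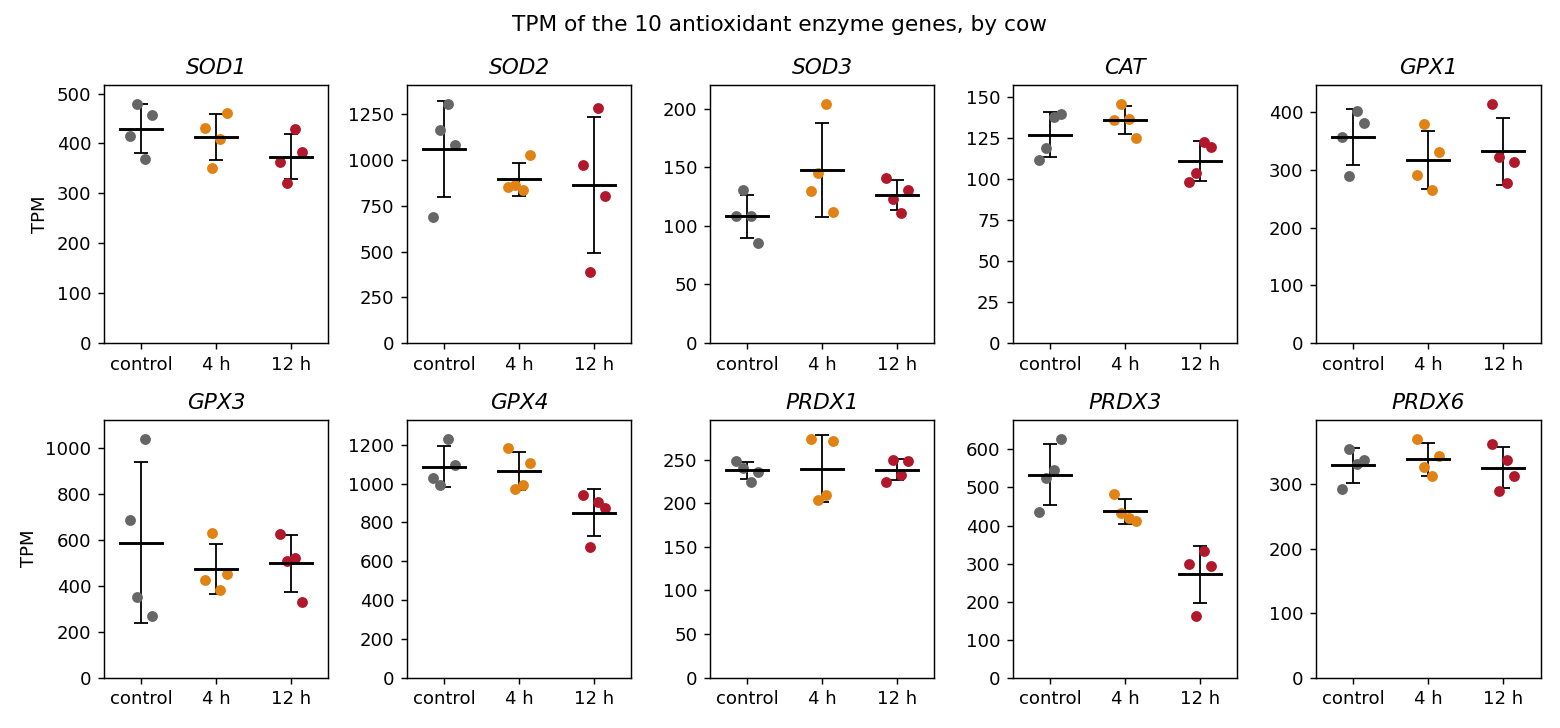
TPM (vertical axis, from 0) of each of the 10 enzyme genes in the 4 control, 4 h and 12 h cows. Points are cows, thick lines are group means and bars are the SD; PRDX3 at 12 h lies below every control and 4 h cow, while most of the other genes overlap between groups.

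At 4 h after PGF2α none of the 10 genes passed the test against control cows (edgeR's quasi-likelihood test, Benjamini-Hochberg adjusted p under 0.05), in a comparison in which 14.2% of all genes tested did. SOD3 was the 1 member with an unadjusted p under 0.05, DESeq2 also called 0 of the 10, and no member's TPM separated the groups without overlap, which 8.31% of all genes did upward and 10.7% downward. The members' log2 fold changes ran between -0.29 (GPX3) and 0.49 (SOD3), with a median of -0.02, against -0.03 for all genes.

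At 12 h, 3 of the 10 genes passed: PRDX1 and SOD3 rose and PRDX3 fell. Of all genes tested 48.9% were called at this time, 23.6% upward and 25.3% downward. With only 10 enzymes, 3 calls cannot be told apart from that share, and the difference was not tested. The median absolute log2 fold change of the 10 was 0.16, against 0.46 over all genes. The second value includes genes with few counts, whereas even SOD3, the lowest member in control cows, had only 1254 of the 14481 genes above it. The members were not set against genes of like level. On log2(TPM + 1) none rose and 2 fell, PRDX3 and GPX4, where 38.9% of all genes were called lower by limma. On counts the 7 others, among them SOD1, SOD2, CAT and all 3 glutathione peroxidases, did not pass.

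**Figure D2:**
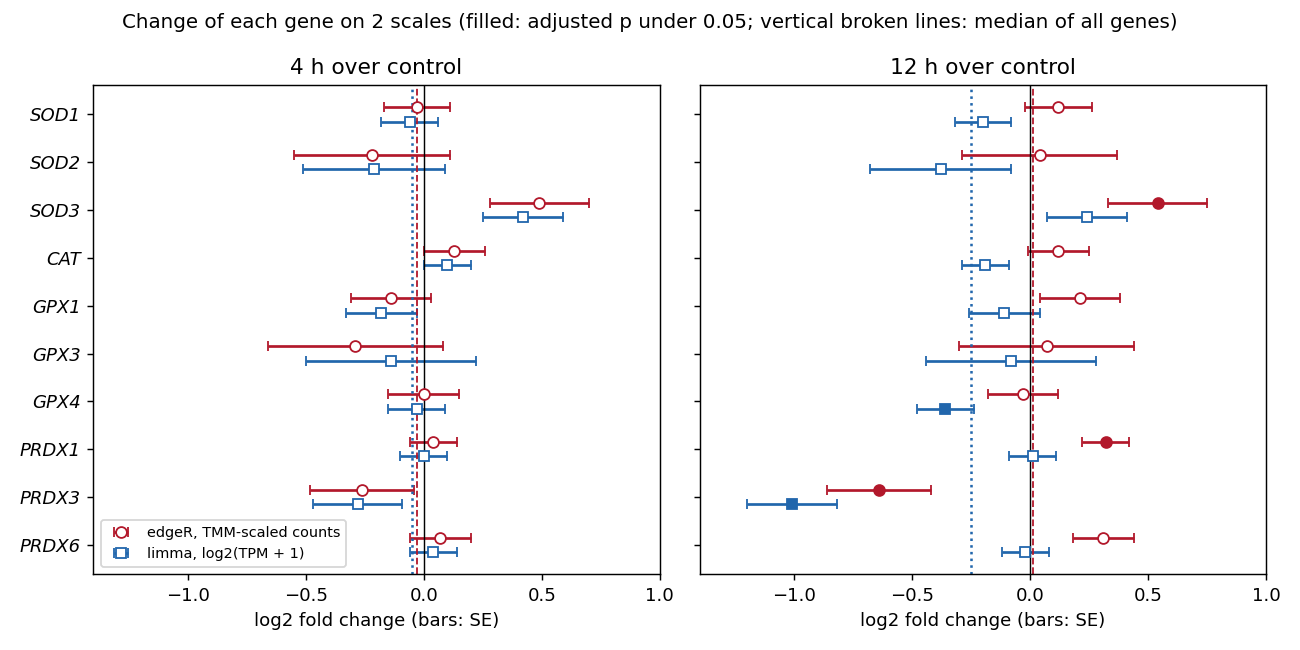
Log2 fold change with its SE (horizontal axis) of each gene at 4 h over control (left) and 12 h over control (right), by edgeR on TMM-scaled counts (circles) and by limma on log2(TPM + 1) (squares), with filled symbols for an adjusted p under 0.05 and broken lines at the median of all genes. PRDX3 is filled on both scales at 12 h, at -0.64 and -1.01, and the median of all genes is at -0.25 on the TPM scale.

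PRDX3 is the mitochondrial peroxiredoxin, which removes hydrogen peroxide in the matrix with electrons from thioredoxin 2. Its gene lies at chr26:39330323-39339704 (ARS-UCD1.2). PRDX3 had 435, 526, 546 and 628 TPM in the 4 control cows, 484, 434, 419 and 411 TPM at 4 h, and 299, 162, 333 and 294 TPM at 12 h. In TPM every 12 h cow was below every 4 h cow and every control cow, as for 34.9% of all genes tested against control cows, and cow6314 was the lowest of all. In TMM-scaled CPM the groups overlapped, with 379, 166, 397 and 357 at 12 h, 388 to 450.1 at 4 h and 396 to 583 in control cows. The mean at 12 h was 272 ± 75.2 TPM, against 534 ± 79.4 TPM in control cows (SD, n = 4 each), a ratio of 0.509. On TMM-scaled counts the fall was -0.64 ± 0.22 on the log2 scale (SE; edgeR adjusted p = 0.0323), and on log2(TPM + 1) it was -1.01 ± 0.19 (limma adjusted p = 0.000857), or -0.76 relative to the median gene.

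The direction of the PRDX3 change at 12 h was the same in every alternative run, but its size and its call leaned on single animals. Without cow6314 the log2 fold change was -0.38 (edgeR adjusted p = 0.0257), and the ratio of mean TPM was 0.578. Without control cow6464, cow7367 or cow7514 the adjusted p was 0.0707, 0.0671 and 0.106, in that order. It was 0.0536, 0.0532 and 0.0521 without cow4291, cow5341 or cow6456 of the 4 h group, which enter through the filter, the scaling and the shared estimate of spread, and 0.0673 when only the control and 12 h cows were fitted. Between 12 h and 4 h the TPM ranges of PRDX3 were apart as well, with a ratio of means of 0.622. In this comparison 30.3% of all genes tested lay below every 4 h cow. PRDX3 was at -0.73 by limma on log2(TPM + 1) (adjusted p = 0.00781), or -0.52 relative to the median gene, where 35.9% of all genes were called lower. On TMM-scaled counts that difference was -0.38 ± 0.22 (edgeR adjusted p = 0.181) and did not pass.

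Markers of several cell types differed at 12 h as well, and cow6314, the cow with the lowest PRDX3, stood apart in some of them. Of all genes tested 23.6% were called higher and 25.3% lower on counts at 12 h. On log2(TPM + 1) these shares were 10.4% and 38.9%. Of 9 markers of steroidogenic luteal cells 7 fell and none rose on counts, with a median log2 fold change of -1.35. On log2(TPM + 1) 8 fell and none rose. The sum of the 9 was lowest in cow6314, at 14867 TPM. Of 12 macrophage markers 8 rose and none fell on counts, and 7 rose and none fell on log2(TPM + 1). The summed level of the 12 was 559 to 878 TPM at 12 h, against 220.5 to 671 TPM in control cows. The 9 neutrophil markers summed to 108 to 277 TPM at 12 h, against 27.3 to 61.7 TPM in control cows. Of the 8 tested, 5 were called higher on counts and 3 on log2(TPM + 1). S100A8 and CAMP were at 0 in at least 1 cow. No steroidogenic or macrophage marker was at 0 in any cow. Among 8 markers of pericytes and smooth muscle, 2 were higher by edgeR and none lower, and 1 was higher on log2(TPM + 1). The share higher by edgeR was near that of all genes. The 8 summed to 5061 TPM in cow6314, 906 to 1705 TPM in the other 12 h cows and 608 to 2002 TPM in control cows. Of 8 fibroblast markers 3 rose and none fell on counts, with none called on log2(TPM + 1), and they summed to 18971 TPM in cow6314, 6573 to 12563 TPM in the other 12 h cows and 6814 to 20482 TPM in control cows. The highest of these control values was that of cow4285, which also had the lowest PRDX3 of the control cows. Of 10 endothelial markers 2 rose and 2 fell on counts, and none rose and 2 fell on log2(TPM + 1). Of 9 T and NK cell markers 1 rose and none fell on either scale. Among 6 erythrocyte markers only HBA reached the count minimum. HBA rose by 2.21 ± 0.51 on counts (edgeR adjusted p = 0.00353) and by 1.36 on log2(TPM + 1) (limma adjusted p = 0.00255). Its level was low, at 2.49 to 7.83 TPM at 12 h, against 0.31 to 2.36 TPM in control cows. The part of these cell types in the PRDX3 change was not tested.

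PRDX1, a cytosolic peroxiredoxin, rose at 12 h on TMM-scaled counts but was level in TPM. PRDX1 had 249, 241, 225 and 236 TPM in control cows, 274, 204, 209 and 272 TPM at 4 h, and 225, 249.6, 232 and 248 TPM at 12 h, and the groups overlapped. After TMM scaling it stood at 287, 258, 279 and 305 CPM (counts scaled to the library total) at 12 h, against 228, 233, 222 and 221 CPM in control cows, and every 12 h cow was above every control cow. Of all genes tested 21.0% were separated upward in this way. The log2 fold change was 0.32 ± 0.10 on TMM-scaled counts (edgeR adjusted p = 0.0176) and 0.01 ± 0.10 on log2(TPM + 1) (limma adjusted p = 0.964), the second being 0.26 above the median gene. Without cow7475 the adjusted p was 0.0683, and with a correction for transcript length it was 0.0592. PRDX1 lies at chr3:100550576-100565166.

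PRDX1 was also the only member called between 12 h and 4 h on counts, at 0.28 ± 0.10 (edgeR adjusted p = 0.0356), where 46.7% of all genes were called and 22.5% were called higher. This call was lost without cow5341, cow6455, cow5266, cow7382 or cow7475, with adjusted p of 0.0712, 0.0811, 0.0908, 0.0843 and 0.128. The expected counts of PRDX1, like those of SOD1 and PRDX6, were not whole in any of the 12 libraries, which means that some of their reads also matched other transcripts and were shared out, and their levels are uncertain to that extent.

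PRDX6 had 292, 355, 331 and 337 TPM in control cows, 370.1, 326, 312 and 344 TPM at 4 h, and 362, 289, 338 and 312 TPM at 12 h. The groups overlapped. Its log2 fold change at 12 h was 0.31 ± 0.13 on TMM-scaled counts (edgeR adjusted p = 0.0626) and -0.02 ± 0.10 on log2(TPM + 1). Without cow6314 the first was 0.45 (adjusted p = 0.00394) and without cow6464 it was 0.39 (adjusted p = 0.0381), and DESeq2 called it with all cows (adjusted p = 0.0369). Only these 2 of the 12 fits that left out 1 cow called PRDX6. The estimate was 0.19 without cow5266, and the edgeR adjusted p over these fits reached 0.228. Among 10 other settings 3 called it, DESeq2 being 1 of them, and 2 reversed its sign. PRDX6 lies at chr16:54932618-54942555.

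Within each library the ratio of PRDX3 to PRDX1 needs no scaling between libraries. It was 1.75, 2.19, 2.43 and 2.66 in control cows, 1.77, 2.13, 2.0 and 1.51 at 4 h, and 1.33, 0.649, 1.43 and 1.18 at 12 h. The PRDX3 transcript was thus more abundant than that of PRDX1 in all 8 control and 4 h cows and in 3 of the 4 cows at 12 h. Every 12 h ratio was below every control and 4 h ratio, with means of 1.15 ± 0.349 at 12 h and 2.26 ± 0.392 in control cows (SD, n = 4 each). No test was made on the ratio, because both genes were already compared above. In TPM PRDX3 alone was separated from control cows, as for 34.9% of all genes tested, while PRDX1 was level, so the ratio restates the PRDX3 fall. It was not set against ratios of other genes.

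**Figure D3:**
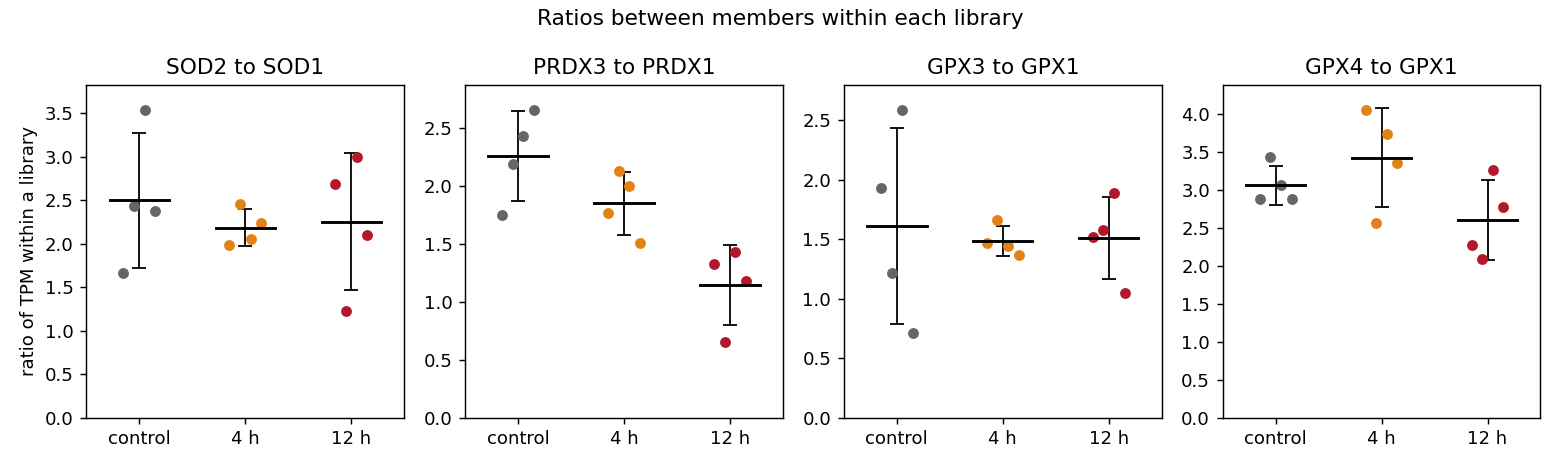
Ratio of TPM within a library (vertical axes, from 0) for SOD2 to SOD1, PRDX3 to PRDX1, GPX3 to GPX1 and GPX4 to GPX1 in control, 4 h and 12 h cows, with points for cows, thick lines for means and bars for the SD. The PRDX3 to PRDX1 ratios at 12 h, 0.649 to 1.43, lie below those of the control and 4 h cows, and the remaining ratios overlap between groups.

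Among the superoxide dismutases only SOD3, the secreted enzyme of the extracellular matrix, passed a test. SOD3 had 108, 131, 108 and 85.6 TPM in control cows, 129.6, 145, 204 and 112 TPM at 4 h, and 141, 123, 111 and 130.5 TPM at 12 h. The TPM ranges overlapped, and the single highest value was that of cow6455 at 4 h. In TMM-scaled CPM the 12 h cows had 142, 100.1, 105 and 126, against 77.6, 99.7, 84.2 and 63.0 in control cows, so that the nearest animals of the groups were almost level. The log2 fold change at 12 h was 0.54 ± 0.21 (edgeR adjusted p = 0.0457), and on log2(TPM + 1) it was 0.24 ± 0.17 (limma adjusted p = 0.275), or 0.48 above the median gene. Its estimate at 4 h was close to this, 0.49 ± 0.21 (edgeR adjusted p = 0.136), and without cow6455 that value was 0.25.

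The SOD3 call at 12 h sat at the threshold. It was lost without control cow4285, cow7367 or cow7514 (edgeR adjusted p = 0.0727, 0.0728 and 0.105), without 12 h cow5266, cow7382 or cow7475 (adjusted p = 0.146, 0.0653 and 0.112), with no count minimum (0.0649) and with the correction for transcript length (0.087). SOD3 lies at chr6:44387091-44393158.

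SOD2, the manganese enzyme of mitochondria, had 689, 1165, 1307 and 1083 TPM in control cows, 854, 862, 836 and 1030.2 TPM at 4 h, and 974, 390.2, 1285 and 804 TPM at 12 h. The 12 h cows were spread over a 3.29-fold range, with cow6314 below every other cow of the study and cow7382 close to the highest control. Its log2 fold change at 12 h was 0.04 ± 0.33 on TMM-scaled counts and -0.38 ± 0.30 on log2(TPM + 1), and neither passed (adjusted p of edgeR 0.93 and of limma 0.314). Without cow6314 the first was 0.35. With an SE of this size, a change of either sign could not be detected in these animals unless it was large.

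SOD1, the copper and zinc enzyme of the cytosol, was steadier, with 369 to 479 TPM in control cows, 351 to 460.2 TPM at 4 h and 321 to 428 TPM at 12 h. Its log2 fold change at 12 h was 0.12 ± 0.14 on TMM-scaled counts (edgeR adjusted p = 0.5) and -0.20 ± 0.12 on log2(TPM + 1). The ratio of SOD2 to SOD1 was 1.22 to 3.0 at 12 h, against 1.66 to 3.54 in control cows, and overlapped. SOD1 lies at chr1:3824601-3833406 and SOD2 at chr9:95955338-95966127.

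Catalase, which breaks down hydrogen peroxide without electrons from glutathione or thioredoxin, had 112, 119, 138 and 139.9 TPM in control cows, 136, 146, 137 and 125 TPM at 4 h, and 98.1, 104, 123 and 120.0 TPM at 12 h. Every 12 h cow was below every 4 h cow, as for 30.3% of all genes tested, though the margin was small, and the 12 h and control cows overlapped. On TMM-scaled counts the log2 fold change at 12 h was 0.12 ± 0.13 over control (-0.19 ± 0.10 on log2(TPM + 1)) and -0.01 ± 0.13 over 4 h, and neither passed. On log2(TPM + 1) CAT fell by 0.29 between 12 h and 4 h (limma adjusted p = 0.0337), which was -0.08 relative to the median gene. In that comparison 35.9% of all genes were called lower. CAT lies at chr15:64975271-65011223 and was counted over 3 transcripts, whereas each of the other members had 1.

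GPX4, the glutathione peroxidase that protects membranes from lipid peroxidation, had 1028, 994, 1230.4 and 1094 TPM in control cows, 1182, 973, 992 and 1107 TPM at 4 h, and 943, 672, 906 and 873 TPM at 12 h. On the TPM scale all 12 h cows were below all others, as 34.9% of genes tested were below control cows and 30.3% below 4 h cows. PRDX3 and GPX4 were the members so placed against control cows, and PRDX3, GPX4 and CAT against 4 h cows. By limma on log2(TPM + 1) GPX4 fell by 0.36 at 12 h (adjusted p = 0.0272) and by 0.33 over 4 h (adjusted p = 0.0438), a comparison in which 35.9% of all genes were called lower. This fall was -0.12 relative to the median gene, and on TMM-scaled counts the change was -0.03 ± 0.15 (edgeR adjusted p = 0.885). GPX4 lies at chr7:43588660-43591106.

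GPX3, the secreted glutathione peroxidase, was the member that varied most between control cows. It had 689, 353, 1041 and 269.9 TPM in these cows, 382 to 632 TPM at 4 h and 331 to 628 TPM at 12 h. The 3.86-fold spread within the control group was wider than any difference between group means, and the change at 12 h was 0.07 ± 0.37 on TMM-scaled counts (edgeR adjusted p = 0.896) and -0.08 ± 0.36 on log2(TPM + 1). GPX1, the main intracellular glutathione peroxidase, had 289 to 402 TPM in control cows, 265 to 379.9 TPM at 4 h and 277 to 414 TPM at 12 h. Its log2 fold change at 12 h over control was 0.21 ± 0.17 on TMM-scaled counts (edgeR adjusted p = 0.305) and -0.11 ± 0.15 on log2(TPM + 1). On counts it was 0.36 ± 0.17 over 4 h (edgeR adjusted p = 0.0945), which passed without cow5341 (adjusted p = 0.0428) and without cow6314 (0.0455). Only these 2 of the 12 fits that left out 1 cow called GPX1, and without cow5266 the estimate was 0.16. Among 10 other settings 0 called it. GPX3 lies at chr7:62284773-62292964 and GPX1 at chr22:50752499-50753719.

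The ratio of GPX4 to GPX1 was 2.09 to 3.27 at 12 h, against 2.88 to 3.43 in control cows, and that of GPX3 to GPX1 was 1.05 to 1.89 at 12 h, against 0.709 to 2.59 in control cows. Both overlapped between groups.

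The genes that work around these enzymes were followed in 5 lists. Over these lists 22 of the 41 genes tested, 53.7%, were called on counts at 12 h, close to the 48.9% of all genes. On log2(TPM + 1) 10.4% of all genes were called higher by limma at 12 h and 38.9% lower. On counts 23.6% were called higher and 25.3% lower. Of 7 genes tested for other peroxidases and their partners, 4 rose on counts at 12 h (PRDX2, PRDX4, GPX7 and GPX8). SRXN1, which is not a peroxidase, fell. PRDX5 and the SOD1 copper chaperone CCS did not pass, and the list median log2 fold change was 0.65. PRDX2, a second cytosolic peroxiredoxin, averaged 688 ± 97.8 TPM at 12 h, against 510.2 ± 55.7 TPM in control cows (SD, n = 4 each), a log2 fold change of 0.75 ± 0.11 (edgeR adjusted p = 0.000216). PRDX4 and GPX8, which act in the endoplasmic reticulum, rose by 0.70 ± 0.11 and 0.80 ± 0.12 on the same scale. These 3 genes also rose on log2(TPM + 1), by 0.43, 0.38 and 0.50, whereas GPX7 was at 0.32 with a limma adjusted p of 0.181, so that 3 of the 7 rose and SRXN1 fell on that scale.

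SRXN1 encodes sulfiredoxin, which restores peroxiredoxins that have been overoxidised by peroxide, and it changed in opposite directions at the 2 times. SRXN1 had 34.3, 37.2, 33.1 and 42.1 TPM in control cows, 65.5, 110.0, 62.1 and 81.9 TPM at 4 h, and 12.9, 9.87, 7.98 and 8.68 TPM at 12 h. The 3 groups did not overlap in TPM. Of all genes tested 8.31% were separated upward from control cows at 4 h. At 12 h 34.9% of genes lay below all control cows and 30.3% below all 4 h cows. SRXN1 rose by 1.15 ± 0.20 on the log2 scale at 4 h (edgeR adjusted p = 0.00251) and fell by 1.57 ± 0.21 at 12 h (adjusted p = 8.77e-05, and -1.81 on log2(TPM + 1)). The difference between 12 h and 4 h was -2.73 ± 0.21 (adjusted p = 9.49e-06).

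On counts thioredoxin and glutaredoxin genes rose at 12 h in 7 of 10 cases and fell in 1, with a median of 0.47, whereas on log2(TPM + 1) 3 rose (TXN, TXNIP and GLRX5) and 2 fell (TXN2 and TXNRD2). TXN, cytosolic thioredoxin and the electron donor of PRDX1, had 756, 706, 868 and 844 TPM in control cows, 1132, 1179, 937 and 1288 TPM at 4 h, and 1798, 1717, 1995 and 1920.3 TPM at 12 h. In TPM every 4 h cow was above every control cow, as for 8.31% of all genes tested. Every 12 h cow was above every other cow, and the share of all genes so placed was not counted. TXN rose by 0.54 ± 0.12 at 4 h (edgeR adjusted p = 0.0132) and by 1.54 ± 0.13 at 12 h (adjusted p = 6.79e-06). GLRX5, a mitochondrial glutaredoxin of iron-sulfur cluster assembly, and TXNIP, a thioredoxin inhibitor, rose by 1.0 ± 0.19 and 0.92 ± 0.13 at 12 h, and TXNRD3 rose by 0.56 ± 0.16. TXN2, the mitochondrial thioredoxin that serves PRDX3, was the 1 gene that fell on counts, at 195 ± 28.7 TPM at 12 h, against 349.6 ± 54.6 TPM in control cows, a log2 fold change of -0.52 ± 0.16 (edgeR adjusted p = 0.016). TXNRD2, the mitochondrial thioredoxin reductase, was at -0.28 ± 0.14 on counts (edgeR adjusted p = 0.121) and fell by 0.58 on log2(TPM + 1) (limma adjusted p = 0.000857). TXNRD1, which recharges cytosolic thioredoxin, rose by 1.23 ± 0.17 at 4 h (adjusted p = 0.000676) and by 0.53 ± 0.17 at 12 h (adjusted p = 0.0212). At 12 h TXNRD1, TXNRD3, GLRX and GLRX2 passed on counts but not on log2(TPM + 1) (limma adjusted p = 0.243, 0.204, 0.761 and 0.526).

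**Figure D4:**
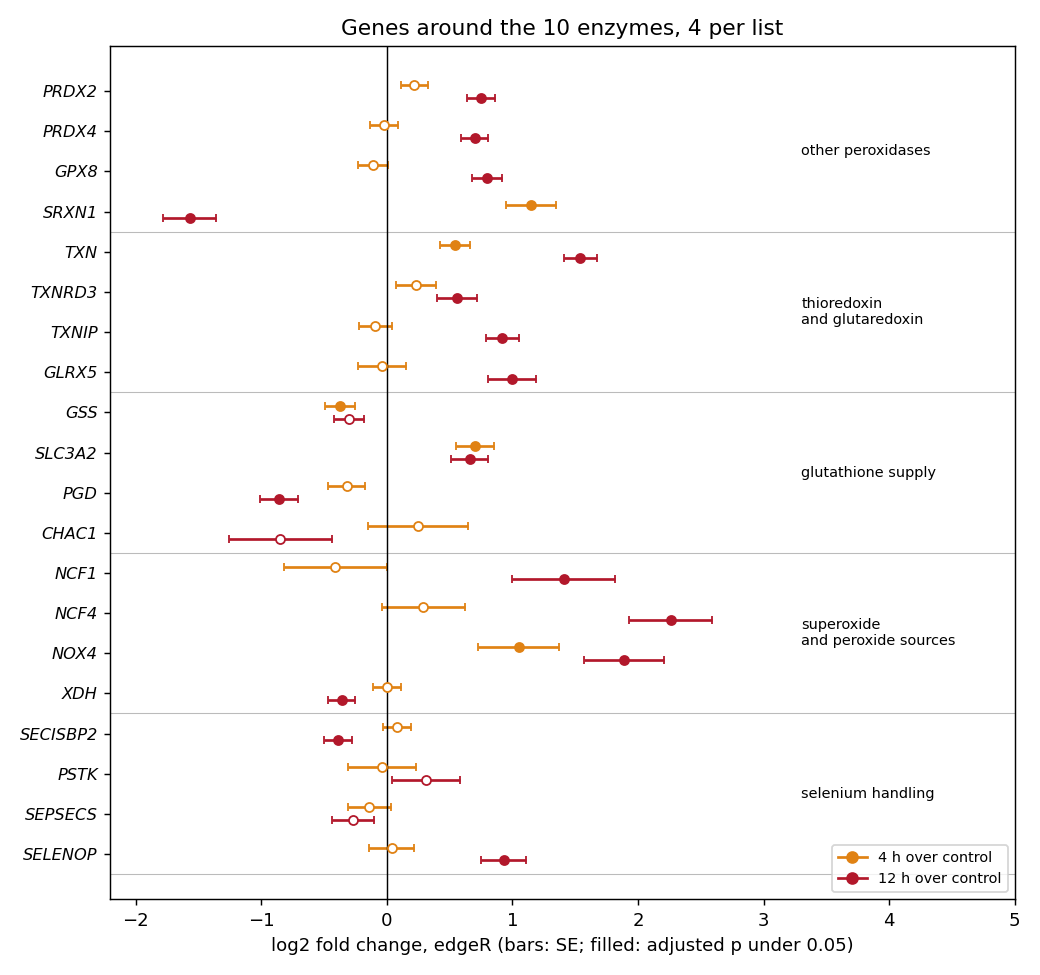
Log2 fold change with its SE by edgeR (horizontal axis) at 4 h and 12 h over control, for the 4 genes with the smallest p at 12 h in each of 5 lists, with filled symbols for an adjusted p under 0.05. SRXN1 lies at 1.15 at 4 h and -1.57 at 12 h, and TXN has the largest rise of its list, 1.54 at 12 h.

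Of 8 glutathione supply genes tested, 1 rose and 1 fell on counts at 12 h, with a median of -0.15, and on log2(TPM + 1) 1 rose and 4 fell. The amino acid transporter subunit SLC3A2 rose by 0.66 ± 0.15 on counts (edgeR adjusted p = 0.0032) and by 0.35 on log2(TPM + 1), while PGD, phosphogluconate dehydrogenase, fell by 0.86 ± 0.15 and by 1.16. GSS, glutathione synthetase, was at -0.30 ± 0.12 on counts (edgeR adjusted p = 0.0502) and fell by 0.57 on log2(TPM + 1) (limma adjusted p = 0.00186). CHAC1, which breaks glutathione down, was at -0.85 ± 0.41 on counts (edgeR adjusted p = 0.109) and fell by 0.76 on log2(TPM + 1) (limma adjusted p = 0.0443). GSR, glutathione reductase, was at -0.11 ± 0.10 on counts and fell by 0.40 on log2(TPM + 1) (limma adjusted p = 0.00809).

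Of 9 genes for sources of superoxide or peroxide, 3 rose and 2 fell on counts at 12 h, a share near that of all genes, with a median of -0.15. On log2(TPM + 1) 3 rose and 3 fell, with the monoamine oxidase MAOA added (-0.47, limma adjusted p = 0.0102). NCF4 and NCF1, cytosolic subunits of the phagocyte NADPH oxidase, rose by 2.26 ± 0.33 and 1.41 ± 0.41 (edgeR adjusted p = 0.000177 and 0.0129). NOX4, an oxidase that makes hydrogen peroxide, rose by 1.89 ± 0.32 but stayed at 1.77 to 4.83 TPM at 12 h, against 0.66 to 1.1 TPM in control cows. Xanthine dehydrogenase, XDH, fell by 0.36 ± 0.11. CYBB, the membrane subunit of the phagocyte oxidase, fell by 0.74 ± 0.28 while the macrophage and neutrophil markers were higher, and the part of these cells was not tested.

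Of 7 genes for selenium handling, on which glutathione peroxidases depend for their selenocysteine, SELENOP rose by 0.93 ± 0.18 (edgeR adjusted p = 0.00101) and SECISBP2, which binds the selenocysteine insertion element, fell by 0.39 ± 0.11 on counts. PSTK and SEPSECS, which make the selenocysteine transfer RNA, were at 0.31 ± 0.27 and -0.27 ± 0.17 and did not pass on counts, while on log2(TPM + 1) SEPSECS fell by 0.49 (limma adjusted p = 0.0149), which with SECISBP2 made 2 fallen, beside 1 risen, SELENOP.

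At 4 h 7 of the 41 genes in these lists, 17.1%, were called on counts, near the 14.2% of all genes: SRXN1 in the first, TXN and TXNRD1 in the second, SLC3A2 up and GSS down in the third (0.70 ± 0.15 and -0.37 ± 0.12), NOX4 in the fourth (1.05 ± 0.32) and LRP8, a receptor for selenoprotein P, in the fifth (0.71 ± 0.20). Of these, GSS and NOX4 did not pass at 4 h on log2(TPM + 1) (limma adjusted p = 0.0603 and 0.164).

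The genes whose pattern over the 12 cows was most like that of PRDX3 were MDH1, ETFDH and MSMO1, which encode malate dehydrogenase 1, an electron transfer flavoprotein dehydrogenase and a methylsterol monooxygenase. Their root mean square differences from the centred log2 CPM of PRDX3 were 0.138, 0.142 and 0.157, out of 13067 named genes with a median of 0.567, while PRDX3 itself varied by 0.435 about its mean. For SOD3 they were ZNF667, ZNF593 and SLC3A2, at 0.146, 0.17 and 0.172 against a median of 0.518. All 12 points come from the same libraries, and these are descriptions of likeness only.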

How the data were processed

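Whole-tissue RNA of 12 corpora lutea was sequenced, 1 library per cow. According to the submitters' processing notes, reads were aligned with STAR 2.5 and quantified with RSEM 1.3 on ARS-UCD1.2. Per the file headers, the authors deposited for each gene RSEM expected counts, TPM and FPKM; TPM and FPKM divide by transcript length and library total, so a few abundant or short transcripts can shift all other values.

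Expected counts were rounded, and a gene was kept where 4 or more libraries reached 10. A single edgeR 4.0.16 fit (TMM, quasi-likelihood test) covered all 3 groups, with Benjamini-Hochberg adjustment over all 14481 genes and a threshold of 0.05. SE is the log2 fold change divided by the square root of F. TPM was compared by range and mean, and with limma on log2(TPM + 1). The scripts were tested on simulated data. DESeq2, other scaling, filters and pseudocounts, a length correction and leaving out cows were tried. Versions were limma 3.58.1, DESeq2 1.42.0 and R 4.3.3. Libraries held 10263310 to 22600213 counts, and member counts between 833 and 31486, so that spread between cows and not counting error limits the precision.

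The members and gene lists were chosen with earlier results of these data known. The text names all 10 members, the 4 genes of each pathway list with the smallest p at 12 h, and the 3 genes most alike to the 2 members with the largest change at 12 h; GPX7, PRDX5, CCS, TXN2, TXNRD1, TXNRD2, GLRX, GLRX2, GSR, CYBB, MAOA, LRP8 and the markers were named after their values were seen. GPX5, SLC7A11, NOX1, NOX3, NOX5, DUOX1 and DUOX2 were under the count minimum, and GPX2, GPX6 and SEPHS2 were not analysed here. In addition, 2 genes were left out of the pathway lists and are not reported here.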

Additional observations from a re-analysis of the deposited data

Results flagged for a closer look

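SOD2 in cow6456 at 4 h stood at 1030.2 TPM, apart from the 3 other 4 h cows, which had 836 to 862 TPM. It lay within the range of the control cows. Of the 42 groups of 4 values examined in this way (TPM of the 10 members and 4 ratios in 3 groups) it was the only one in which 1 cow stood so far apart. Chance gives about 1 such group in every 20, so 1 among 42 is not more than chance gives.

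The effect of PGF2α on PRDX1 differed between the times, by 0.28 on the log2 scale at 12 h over 4 h (edgeR adjusted p = 0.0356), and 3 of the 4 cows at 12 h were above all 4 h cows in TMM-scaled CPM. On log2(TPM + 1) the difference was 0.01.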

How the results depend on the processing

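The calls among the 10 genes depended on scale. At 12 h over control, 0 members rose and 2 fell (PRDX3, GPX4) with limma on log2(TPM + 1) or log2(TPM + 0.1), 0 rose with a transcript length correction, 1 rose with no count minimum and 0 fell when only the 2 groups were fitted. At 12 h over 4 h, 0 members rose under all of these and 3 fell (PRDX3, CAT, GPX4) with either limma fit; without cow6455 and cow6314 the 1 call was PRDX6 (adjusted p = 0.041), PRDX1 being lost. Leaving out each cow in turn gave 0 to 3 members risen and 0 to 1 fallen at 12 h over control, 0 to 3 risen at 12 h over 4 h (3 without cow6314, which added PRDX6 with adjusted p = 0.0129 and GPX1), and 1278 to 2178 genes called at 4 h, the lowest without control cow7514 (1278) and cow5341 (1309).

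No value whose sign differed from that of the edgeR value above passed its test. At 12 h over control the log2 fold changes with limma were -0.204 for SOD1, -0.383 for SOD2, -0.192 (pseudocount 1) or -0.193 (0.1) for CAT, -0.112 for GPX1, -0.076 for GPX3 and -0.017 for PRDX6. At 12 h over 4 h they were -0.144 for SOD1, -0.172 or -0.173 for SOD2, -0.189 or -0.19 for SOD3 and -0.058 for PRDX6. With the length correction they were -0.02 for SOD1 and -0.032 for GPX3 at 12 h over control, -0.005 for SOD1, -0.035 for SOD3 and 0.054 for CAT at 12 h over 4 h, and -0.011 for PRDX1 at 4 h. Without mitochondrially encoded genes GPX4 was at 0.008 and CAT, over 4 h, at 0.013; with only the 2 groups fitted CAT was at 0.012; without cow6455 and cow6314 GPX4 was at 0.097 over control and 0.095 over 4 h, and CAT at 0.093. GPX4 at 4 h, near 0 throughout, was at 0.017 with DESeq2, RLE scaling or 2 groups, 0.006 with no count minimum, 0.0 with a minimum of 50, and 0.013, 0.012 and 0.002 without mitochondrial genes, with the length correction and without cow6455 and cow6314.

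Leaving out single cows turned the sign of SOD1 at 4 h (-0.079 to 0.057), GPX3 at 4 h (-0.518 to 0.173) and 12 h (-0.138 to 0.532), GPX4 at 4 h (-0.028 to 0.083), at 12 h (-0.138 to 0.154) and over 4 h (-0.141 to 0.141), SOD2 at 12 h (-0.235 to 0.35) and over 4 h (-0.02 to 0.556), and SOD3 (-0.072 to 0.289) and CAT (-0.098 to 0.102) at 12 h over 4 h. The cause of these changes was not tested. No paired analysis was possible because the cows carry different tags in each group.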
